A study of Mus musculus with 12 samples.

Results

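Acta1, Actn3, Atp2a1, Ckm, Myh1, Myh4, Tnnt3, Tnni2, Mylpf and Myl1 encode proteins of the skeletal muscle fiber, and their RNA was measured in whole PyMT mammary tumors. The 10 genes were chosen by symbol from 21960 listed genes, with their levels in these same tumors already known, so the way they vary together is given as a description and was not tested. All 10 were found, and all 10 were at 1 TPM or more in at least 3 of the 12 tumors, as were 14735 genes in all. The question was whether their levels follow the tumor or the treatment.

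The tumors arise in female C57BL/6 mice in which the MMTV promoter drives the polyoma middle T oncogene (PyMT) in the mammary epithelium. RNA-Seq was performed on 12 tumors, 3 in each of 4 groups. IgG1 mice received an isotype control antibody and anti-PD-1 mice an antibody that blocks the checkpoint receptor PD-1, from a diameter of 0.6 cm of the first tumor, with 20 mg/kg at the start and 10 mg/kg at later doses up to day 18. DOX/IgG1 and DOX/anti-PD-1 mice received 5 mg/kg doxorubicin, a DNA-damaging chemotherapy, once weekly for 5 weeks from a diameter of 1 cm, and 10 mg/kg of the same antibodies on the day after each dose. The labels give 5 weeks for every group. Doxorubicin, tumor size at the start and antibody schedule therefore cannot be told apart between the groups with and without doxorubicin. Which mammary gland a tumor came from, how it was dissected and the age of the mice are not given in the sources used here. The labels number the replicates without naming the mouse, so whether each of the 12 samples came from a different mouse is not known from them. The p-values set differences between groups against the spread between samples of the same group. Levels are in TPM, a share of the transcripts of a library, given for replicates 1, 2 and 3 of a group in this order, and the read depth of the libraries is unknown.

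Skeletal muscle fibers are long multinucleated cells filled with sarcomeres, in which thin filaments of actin slide along thick filaments of myosin. Fast fibers use their own isoforms of myosin, troponin and the calcium pump, and slow fibers another set, so transcripts of these isoforms tell fiber types apart. The mammary fat pad lies under the skin, over the muscles of the body wall, and the mammary epithelium itself contracts through myoepithelial cells, which use smooth muscle genes instead. In whole tissue, fewer cells of a type and less RNA per cell cannot be told apart.

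The labelled tissue was checked against its markers. The 8 tumor epithelium genes summed to 3911, 2735 and 3357 TPM (IgG1), 3048, 2376 and 2572 TPM (anti-PD-1), 2280, 3355 and 3847 TPM (DOX/IgG1) and 3270, 3020 and 2365 TPM (DOX/anti-PD-1). Epcam, a surface protein of epithelia, ranged from 418 to 954 TPM, the keratins Krt19 and Krt18 from 255 to 1801 and from 376 to 750 TPM, and the adhesion protein Cdh1 from 207 to 412 TPM. Epithelial transcripts were thus abundant in every tumor. The fiber genes were a small part of each library, and their sum made up between 0.00064% and 0.194% of the listed TPM.

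Among the genes of the thin filament, Acta1 (ENSMUSG00000031972, chr8:123891769-123894751, minus strand, GRCm38), the skeletal muscle actin, reached 42.4, 9.91 and 107 TPM (IgG1), 86.7, 15.4 and 6.72 TPM (anti-PD-1), 12.1, 51.6 and 87.9 TPM (DOX/IgG1) and 193, 0 and 16.6 TPM (DOX/anti-PD-1). Tnni2 (ENSMUSG00000031097, chr7:142441808-142444410, plus strand), the inhibitory subunit of fast troponin, was at 38.3, 5.38 and 108 TPM (IgG1), 141, 8.52 and 3.75 TPM (anti-PD-1), 24.0, 33.4 and 25.7 TPM (DOX/IgG1) and 183, 0 and 24.0 TPM (DOX/anti-PD-1). Apart from Tnni2 in DOX/IgG1 tumors, which lay close together, each group held high and low values of both genes, and in every pair of groups their ranges overlapped. Tnnt3 (ENSMUSG00000061723, chr7:142498836-142516009, plus strand), which ties fast troponin to tropomyosin, was at 30.6, 7.22 and 91.9 TPM (IgG1), 116, 7.46 and 4.99 TPM (anti-PD-1), 0, 12.7 and 18.7 TPM (DOX/IgG1) and 114, 0 and 30.2 TPM (DOX/anti-PD-1). DOX/anti-PD-1 replicate 2 was listed at 0 for all 3 genes, although it belongs to the same group as the tumor with the highest Acta1 and Tnni2.

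The promoter of Acta1 is shown because it holds a CArG box, the letters bound by serum response factor. Among the 7 promoters available for these genes, only that of Myh4 also held a CArG box. RefSeq promoters of 300 bases (GRCm38.p6, 250 before and 50 after the start) were found for 7 of the 10 genes, Acta1, Atp2a1, Ckm, Myh1, Myh4, Myl1 and Mylpf. Capitals mark matches on either strand to the E-box CAGCTG bound by MyoD-type factors, the MCAT letters CATTCC, the TATA letters TATAAA, the CArG box and the MEF2 box, the last of which can overlap TATA letters. The Acta1 promoter (chr8:123894726-123895025, minus strand) holds an E-box, a CArG box, MCAT letters and TATA letters in this order.
Acta1: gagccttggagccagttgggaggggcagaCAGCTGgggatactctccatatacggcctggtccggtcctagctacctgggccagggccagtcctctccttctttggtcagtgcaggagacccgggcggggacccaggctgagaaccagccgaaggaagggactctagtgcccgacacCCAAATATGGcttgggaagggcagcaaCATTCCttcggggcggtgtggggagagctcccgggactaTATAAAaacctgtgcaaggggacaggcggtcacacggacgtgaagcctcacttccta
CAGCTG occurred in 6 of the 7 promoters and in 16.3% of 32851 RefSeq promoters, CATTCC in 4 and 14.7%, and TATAAA in 4 and 13.6%. A CArG box occurred in 2 of the 7 and in 1.63% of all promoters, and a MEF2 box in 2 and 3.19%. A match is a description of the letters, and binding was not measured.

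Of the myosin heavy chains, the motors of the thick filament, Myh4 (ENSMUSG00000057003, chr11:67238029-67260446, plus strand) is the isoform of the fastest fibers. It was at 8.69, 4.02 and 151 TPM (IgG1), 126, 1.38 and 0.62 TPM (anti-PD-1), 3.73, 30.1 and 36.8 TPM (DOX/IgG1) and 186, 0 and 42.1 TPM (DOX/anti-PD-1). Its standard deviation over the 12 tumors, 2.65 on the log2 scale, was the largest of the 10 genes, and the tumors above 100 TPM came from 3 groups. Myh1 (ENSMUSG00000056328, chr11:67200052-67224575, plus strand), the isoform of an intermediate fast fiber, was at 16.1, 2.94 and 16.7 TPM (IgG1), 29.8, 10.8 and 2.86 TPM (anti-PD-1), 0.74, 5.77 and 6.98 TPM (DOX/IgG1) and 34.2, 0 and 4.50 TPM (DOX/anti-PD-1). Myl1 (ENSMUSG00000061816, chr1:66924295-66945404, minus strand), an essential light chain, had the highest mean of the 10 genes, with 38.9, 14.7 and 138 TPM (IgG1), 111, 18.3 and 5.95 TPM (anti-PD-1), 13.2, 40.4 and 55.3 TPM (DOX/IgG1) and 258, 0.76 and 33.5 TPM (DOX/anti-PD-1). Mylpf (ENSMUSG00000030672, chr7:127208890-127214298, plus strand), the regulatory light chain of fast fibers, was at 6.62, 0 and 31.2 TPM (IgG1), 32.5, 6.16 and 5.53 TPM (anti-PD-1), 23.7, 8.27 and 7.42 TPM (DOX/IgG1) and 77.4, 0 and 17.7 TPM (DOX/anti-PD-1). For Mylpf, DOX/IgG1 replicate 1 was the fourth highest tumor, and for the other 9 genes it ranked lower.

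Actn3 (ENSMUSG00000006457, chr19:4861216-4877909, minus strand), the alpha-actinin that anchors thin filaments in the Z-disc of fast fibers, was the lowest of the 10 genes, with 1.41, 0.69 and 18.8 TPM (IgG1), 19.0, 0 and 0.60 TPM (anti-PD-1), 0, 5.31 and 5.35 TPM (DOX/IgG1) and 28.8, 0.27 and 5.38 TPM (DOX/anti-PD-1). Ckm (ENSMUSG00000030399, chr7:19404776-19422841, plus strand), the muscle creatine kinase that restores ATP during contraction, was at 6.61, 3.25 and 34.4 TPM (IgG1), 33.8, 1.56 and 0.61 TPM (anti-PD-1), 0, 11.6 and 7.98 TPM (DOX/IgG1) and 99.8, 0 and 22.6 TPM (DOX/anti-PD-1). Both were listed at 0 in some tumors, and both were highest in DOX/anti-PD-1 replicate 1. Atp2a1 (ENSMUSG00000030730, chr7:126445858-126463108, minus strand), the calcium pump that refills the sarcoplasmic reticulum of fast fibers, was at 9.75, 5.79 and 57.6 TPM (IgG1), 48.9, 1.77 and 2.06 TPM (anti-PD-1), 3.75, 20.4 and 15.5 TPM (DOX/IgG1) and 108, 3.61 and 32.1 TPM (DOX/anti-PD-1). Atp2a1 and Myl1 were the 2 genes listed above 0 in every tumor.

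**Figure D1:**
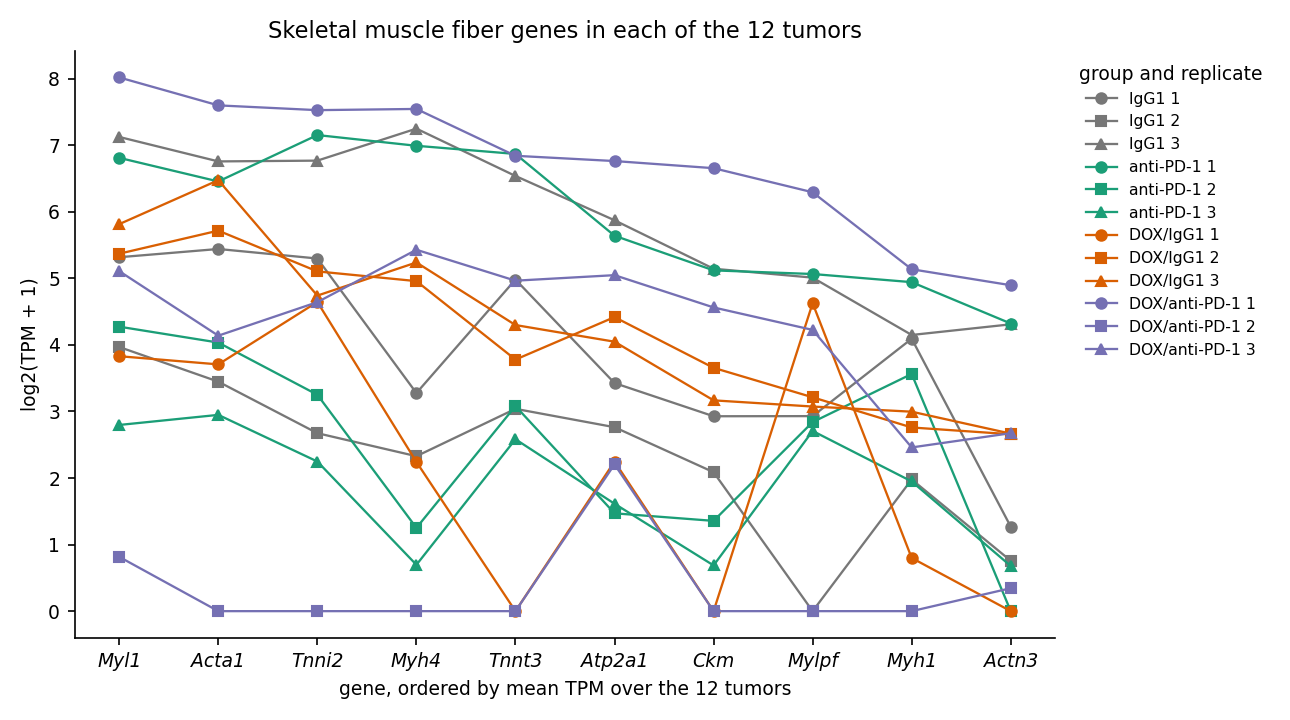
Level of each of the 10 fiber genes, as log2(TPM + 1) on the vertical axis, with 1 line for each of the 12 tumors, colored by group. The lines of DOX/anti-PD-1 1, IgG1 3 and anti-PD-1 1 run above the rest for nearly every gene, and that of DOX/anti-PD-1 2 lies at or near 0 for most genes.

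The highest tumors were nearly the same from gene to gene, and the order of the others varied. DOX/IgG1 replicate 1, for example, was at 23.7 TPM for Mylpf and listed at 0 for Actn3, Ckm and Tnnt3. The summed level of the 10 genes was 1281 TPM in DOX/anti-PD-1 replicate 1, 755 TPM in IgG1 replicate 3 and 745 TPM in anti-PD-1 replicate 1. These 3 tumors, which belong to 3 groups, were the highest for 9 of the 10 genes. Among all 14735 genes tested, 96 (0.652%) had the same 3 tumors on top, a count chosen after the values were seen. For Acta1, DOX/IgG1 replicate 3 took the place of anti-PD-1 replicate 1 by 87.9 against 86.7 TPM. Next came DOX/IgG1 replicates 3 and 2 with 268 and 219 TPM, DOX/anti-PD-1 replicate 3 with 229 TPM and IgG1 replicate 1 with 199 TPM, 4 tumors that were close to each other. DOX/IgG1 replicate 1 (81.2 TPM), anti-PD-1 replicate 2 (71.4 TPM), IgG1 replicate 2 (53.9 TPM) and anti-PD-1 replicate 3 (33.7 TPM) were lower. DOX/anti-PD-1 replicate 2 had 4.64 TPM, and 7 of the 10 genes were listed at 0 in it.

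Within a group the summed level differed by 14.0 times between the highest and the lowest IgG1 tumor, 22.1 times between anti-PD-1 tumors, 3.30 times between DOX/IgG1 tumors and 276 times between DOX/anti-PD-1 tumors. The medians of the 4 groups were 199, 71.4, 219 and 229 TPM in the same order. The spread inside a group was thus wider than the distance between the medians, though only slightly in DOX/IgG1 tumors. Single tumors set much of this spread. Without replicate 1, the DOX/IgG1 tumors were at 219 and 268 TPM and the anti-PD-1 tumors at 33.7 and 71.4 TPM. Without replicate 2, the DOX/anti-PD-1 tumors were at 229 and 1281 TPM. The lowest tumor did not lack transcripts in general. DOX/anti-PD-1 replicate 2 listed 15226 genes above 0, and of 13638 genes that reached 1 TPM in at least 6 tumors it had 141 at 0. DOX/IgG1 replicate 1, in which Actn3, Ckm and Tnnt3 were listed at 0, had 689 such genes at 0, the most of the 12 tumors, and 13856 genes above 0, the fewest. Whether the zeros of the fiber genes in that tumor have the same source was not tested.

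**Figure D2:**
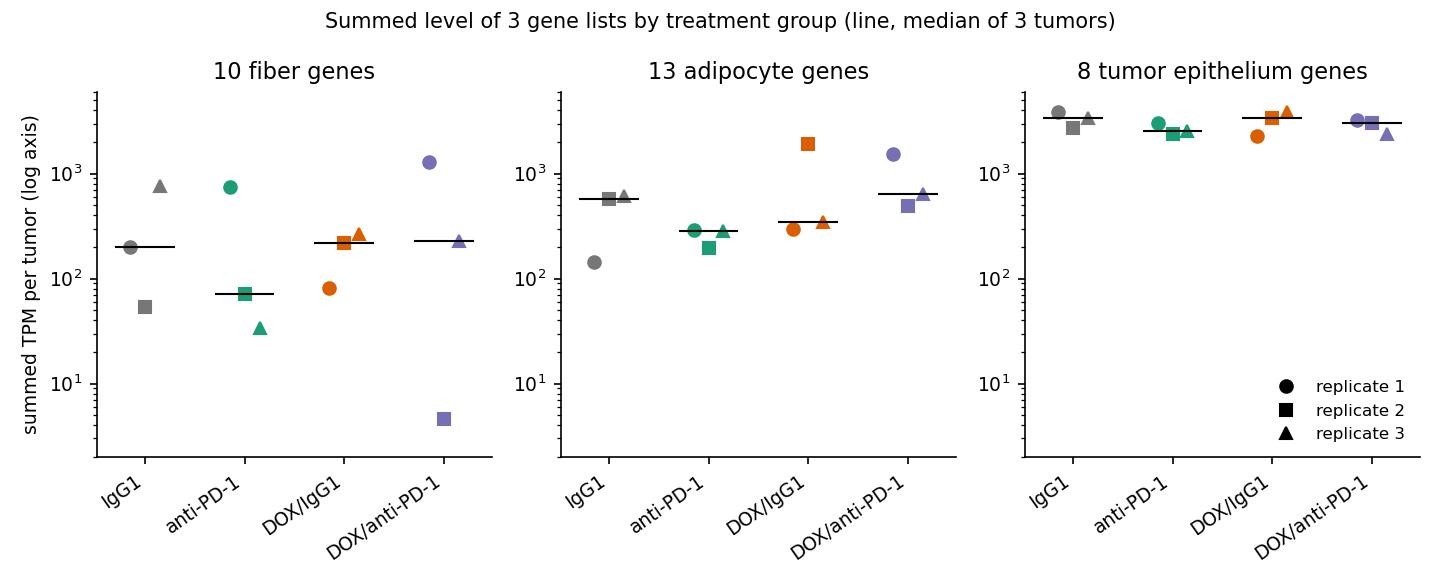
Summed TPM per tumor on a log axis for the 10 fiber genes, 13 adipocyte genes and 8 tumor epithelium genes, by treatment group, with a line at the median of the 3 tumors. The fiber genes spread from 4.64 to 1281 TPM with overlapping groups, whereas the tumor epithelium genes stay between 2280 and 3911 TPM.

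The 10 genes form 45 pairs. Over the 12 tumors, Pearson's r of log2(TPM + 1) lay between 0.62 and 0.98 with a median of 0.86, and Spearman's rho between 0.66 and 0.99 with a median of 0.87. When the group means were subtracted, which leaves the differences between tumors of the same treatment, the median r was 0.93 and the lowest 0.74. Without the 2 tumors farthest from the median, DOX/anti-PD-1 replicates 2 and 1, the median r over 10 tumors was 0.81 and the lowest 0.32. Pairs with r above 0.8 numbered 33 of 45 in all tumors and 23 of 45 without those 2 tumors. The points share the library, its depth and its composition. Against the mean of the other 9 genes, Myl1 had the highest r, 0.97, followed by Myh4 (0.96) and Ckm (0.95). Mylpf had the lowest, 0.77, and Myh1 the next, 0.86.

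The mix of myosin heavy chains also differed between tumors. Of the summed TPM of Myh1, Myh2, Myh4 and Myh7, Myh4 took 88.4% in IgG1 replicate 3, 73.9% in anti-PD-1 replicate 1, 79.4% in DOX/anti-PD-1 replicate 1 and 89.8% in DOX/anti-PD-1 replicate 3. It also took 81.5% and 81.2% in DOX/IgG1 replicates 2 and 3. In anti-PD-1 replicates 2 and 3, Myh1 was the main isoform with 79.8% and 73.5%, at sums of 13.6 and 3.89 TPM. IgG1 replicate 1 stood apart, with 47.0% Myh1, 25.4% Myh4, 15.3% Myh2 and 12.3% Myh7, the slow isoform. The shares of DOX/anti-PD-1 replicate 2 rest on 0.54 TPM of Myh2 alone.

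**Figure D3:**
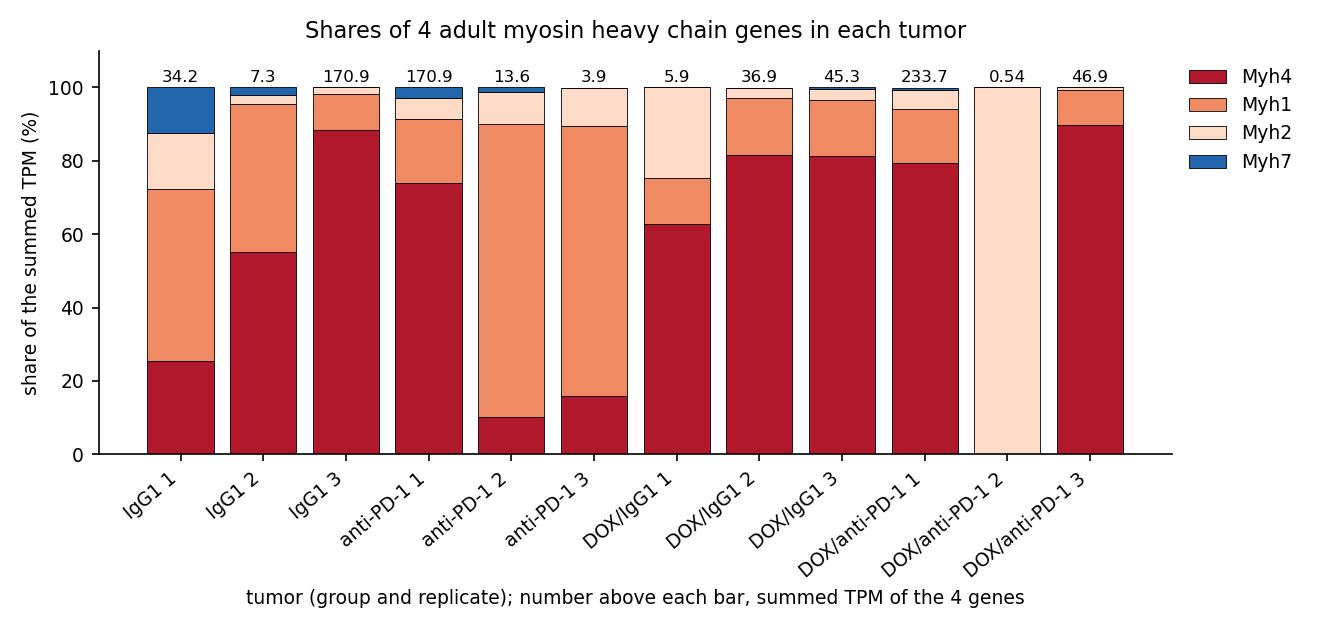
Share of the summed TPM taken by Myh4, Myh1, Myh2 and Myh7 in each of the 12 tumors, with the summed TPM above each bar. Myh4 takes over 70% in 6 tumors, which come from all 4 groups, and Myh1 leads in IgG1 1 and in anti-PD-1 2 and 3.

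The promoters of Myh4 and Myh1 are shown because tumors differed in which of these neighbors led the myosin transcripts. Capitals mark the same letters as above.
Myh4 (chr11:67237562-67237861, plus strand): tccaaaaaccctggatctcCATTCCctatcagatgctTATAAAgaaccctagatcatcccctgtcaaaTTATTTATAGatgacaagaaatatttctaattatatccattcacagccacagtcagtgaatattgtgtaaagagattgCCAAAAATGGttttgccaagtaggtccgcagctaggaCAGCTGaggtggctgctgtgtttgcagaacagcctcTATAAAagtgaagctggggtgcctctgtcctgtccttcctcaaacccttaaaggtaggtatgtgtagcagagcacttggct
Myh1 (chr11:67199852-67200151, plus strand): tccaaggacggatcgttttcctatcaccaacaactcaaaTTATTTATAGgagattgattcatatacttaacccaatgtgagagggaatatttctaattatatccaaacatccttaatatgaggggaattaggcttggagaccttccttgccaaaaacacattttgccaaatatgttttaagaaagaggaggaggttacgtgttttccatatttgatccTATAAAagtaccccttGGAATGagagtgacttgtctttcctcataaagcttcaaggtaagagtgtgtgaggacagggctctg
Both hold a MEF2 box that overlaps TATA letters far from the start, further TATA letters close to it, and MCAT letters. An E-box and a CArG box were found in the Myh4 promoter only. Heavy chain genes are alike in sequence, and of the 75-base windows of the longest Myh1 and Myh4 transcripts 16.6% and 9.68% also occur in another gene, mostly in Myh2, Myh8 or each other. Reads from these windows could have been split between the genes, so their separate levels are less certain. For Myl1, 16.6% of the windows occur in the pseudogene Mylf-ps and for Acta1 0.437% in another gene, and 0 windows were shared for the other 6 genes.

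Treatment was compared in fits over all genes. Between anti-PD-1 and IgG1 tumors, limma called 0 of the 10 fiber genes and 0 of 13692 genes tested (0.0%), where a call asked for an adjusted p below 0.1 with a log2 fold change beyond 1 in either direction. At an unadjusted p below 0.05 there were 0 fiber genes and 630 genes in all (4.6%). The log2 fold changes on the log2(TPM + 1) scale, which understates the change of low genes, went from -1.31 for Myh4 (standard error 1.61) to 0.89 for Mylpf (standard error 1.08), with 2 genes higher and 8 lower and a median of -0.72 against -0.03 over all genes. These standard errors are larger than the changes. Without IgG1 replicate 3 the value of Myh4 was 0.18, and without IgG1 replicate 2 that of Mylpf was -0.43. Without IgG1 replicate 1, limma called 4 genes, 0 of them fiber genes. In 0 of the 10 genes did the groups part without overlap, compared with 9.88% of the genes tested.

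Between DOX/IgG1 and IgG1 tumors, 0 of the 10 fiber genes and 5 of 13874 genes (0.036%) were called with limma, and 0 and 1073 (7.73%) had an unadjusted p below 0.05. The fold changes went from -2.16 for Tnnt3 (standard error 1.18, limma adjusted p = 0.708) to 0.99 for Mylpf (standard error 1.09), with 2 genes higher and 8 lower and a median of -0.39 against 0.12 over all genes. Without IgG1 replicate 2, the value of Mylpf was -0.33, and without DOX/IgG1 replicate 1 that of Tnnt3 was -0.81. Without DOX/IgG1 replicate 1, the tumor with the most zeros, 122 genes were called, without DOX/IgG1 replicate 2 it was 2, and without DOX/IgG1 replicate 3 or any 1 of the IgG1 tumors 0, with 0 fiber genes in each case. The groups did not part for any of the 10 genes, whereas they did for 14.0% of all genes.

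When DOX/anti-PD-1 was compared with anti-PD-1 alone, limma called 0 of the 10 fiber genes and 0 of 13736 genes (0.0%), and 0 and 1185 (8.63%) had an unadjusted p below 0.05. The fold changes went from -0.95 for Myh1 (standard error 1.17) to 1.76 for Atp2a1 (standard error 1.28, limma adjusted p = 0.715), with 5 genes higher and 5 lower. When it was compared with DOX/IgG1, the counts were 0 of the 10 and 0 of 13946 genes (0.0%), with 0 and 655 (4.7%) at an unadjusted p below 0.05, and fold changes from -1.39 for Acta1 (standard error 1.62) to 1.47 for Ckm (standard error 1.59), with 6 higher and 4 lower. Without DOX/anti-PD-1 replicate 1, the values of Atp2a1 and Ckm were 0.72 and 0.01, and the highest were 3.13 for Atp2a1 without anti-PD-1 replicate 1 and 3.33 for Ckm without DOX/anti-PD-1 replicate 2. Without DOX/anti-PD-1 replicate 2, the values of Myh1 and Acta1 changed sign, to 0.31 and 0.57, and 4 genes were called against anti-PD-1 alone. Without DOX/IgG1 replicate 1, 4 genes were called against DOX/IgG1, and fiber genes were not among these. In both comparisons the groups overlapped for all 10 genes, and they did not for 14.9% and 10.2% of the genes tested. The 4 comparisons share groups with each other.

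With all 12 tumors in 1 fit, the limma F test over the 4 groups called 0 of the 10 fiber genes and 11 of 14735 genes (0.0747%), and the smallest unadjusted p among the 10 was 0.557. For doxorubicin over both antibodies it was 0 of the 10 and 13 genes (0.0882%), for anti-PD-1 over both chemotherapy arms 0 and 1 gene (0.00679%), and for the interaction of chemotherapy with antibody 0 and 1 gene (0.00679%). At an unadjusted p below 0.05 there were 0 fiber genes in each of these 4 tests, beside 8.27%, 11.9%, 4.77% and 4.71% of all genes in the same order. The median log2 value of the 10 genes was 0.90 for the interaction, with 7 above 0 and 3 below, and 0.10 for anti-PD-1, with 5 and 5, as for doxorubicin. Without DOX/IgG1 replicate 1, 116 genes were called by the F test, 301 for doxorubicin and 5 for anti-PD-1. The F test called 2 genes without IgG1 replicate 3, anti-PD-1 replicate 1 or DOX/IgG1 replicate 2 or 3, and there were 0 for doxorubicin without IgG1 replicate 2 or anti-PD-1 replicate 1, with 0 fiber genes in all of these. Under the alternatives, 0 of 1160 values of the 10 genes in the 8 tests were called, with limma adjusted p between 0.329 and 1, and between 0.663 and 1 in the F test. A p that misses the threshold does not show that the levels were equal, and the standard errors leave room for sizeable changes in either direction.

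The part of the variation that lay between treatments was small for these genes. Of the sum of squares of log2(TPM + 1) over the 12 tumors, between 3.17% (Tnni2) and 14.3% (Atp2a1) fell between the 4 group means, with a median of 6.42%. Over all 14735 genes tested the median was 27.4%. Means of 3 tumors differ even without an effect of treatment. With 4 groups of 3 tumors, a share near 27.4% is usual without any effect. The median over all genes therefore does not show that typical genes followed treatment. The remaining 85.7% to 96.8% lay between tumors of the same group, where the standard deviation on the log2 scale was 1.72 for Myh1 and 3.04 for Myh4, with a median of 2.33 against 0.48 over all genes. The standard deviation of Myh4 exceeded that of 99.95% of the genes tested, and that of Myh1, the lowest of the 10, exceeded 99.11%. The median share was 12.0% without IgG1 replicate 2, 16.2% without anti-PD-1 replicate 1, 16.9% without DOX/anti-PD-1 replicate 1 and 23.7% without DOX/anti-PD-1 replicate 2. These values describe genes that were chosen with their spread known, and no test was made.

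**Figure D4:**
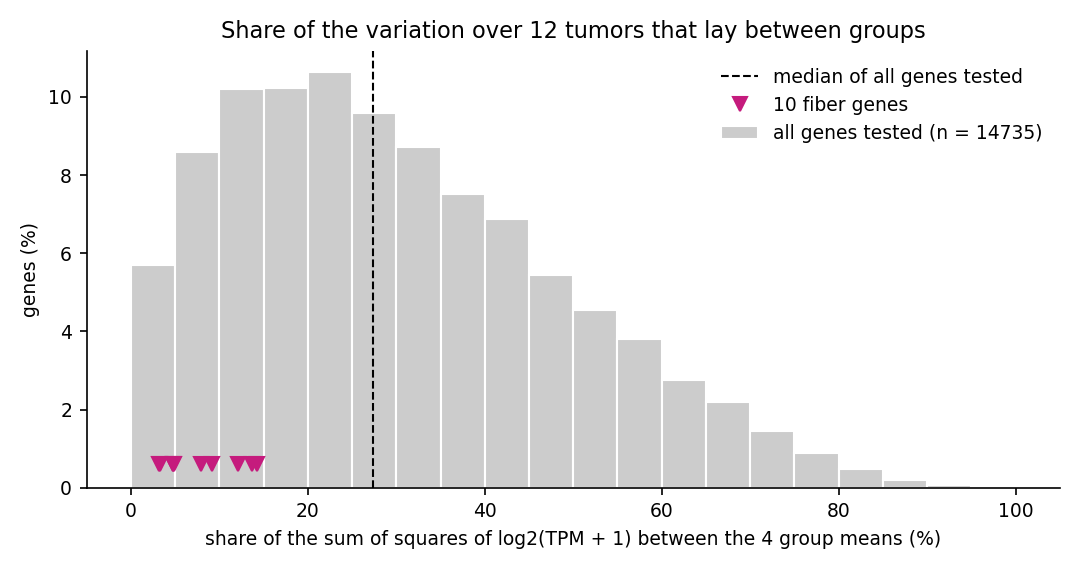
Histogram of the share of the sum of squares of log2(TPM + 1) that lay between the 4 group means, for the 14735 genes tested, as percent of genes. Triangles mark the 10 fiber genes, which lie between 3.17% and 14.3%, and the dashed line the median of all genes, 27.4%.

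Other genes of the fast fiber and the sarcomere went along with the 10. The 15 genes outside the 10 with the highest Pearson's r to their mean log2(TPM + 1) over the 12 tumors were Ttn, Ryr1, Tnnc2, Des, Xirp2, Neb, Pygm, Trdn, Mybpc2, Smyd1, Mylk4, Mybpc1, Klhl31, Tcap and Myom2. Their r lay between 0.90 and 0.99 and their Spearman's rho between 0.84 and 0.98. The median r of all 14725 other genes was -0.04, and 43 of them (0.292%) exceeded 0.8. With group means subtracted the lowest r of the 15 was 0.91, and without the 2 tumors farthest from the median it was 0.81. The next gene in this order was Nrap with 0.89. Of the 15, 13 were in the lists of muscle genes described next, and Mylk4 and Klhl31 were not.

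Ttn encodes titin, the spring that spans the sarcomere, and was most like the 10 genes, with 18.7, 8.67 and 83.3 TPM (IgG1), 149, 4.97 and 3.57 TPM (anti-PD-1), 5.40, 19.4 and 23.2 TPM (DOX/IgG1) and 206, 0.51 and 33.0 TPM (DOX/anti-PD-1). Tnnc2, the calcium sensor of fast troponin, was at 8.16, 1.55 and 44.9 TPM (IgG1), 77.3, 10.8 and 0.87 TPM (anti-PD-1), 0, 7.24 and 13.1 TPM (DOX/IgG1) and 126, 0 and 14.6 TPM (DOX/anti-PD-1). Ryr1, the calcium release channel of the sarcoplasmic reticulum, was lower, with 1.34, 0.19 and 5.93 TPM (IgG1), 5.51, 1.26 and 0.14 TPM (anti-PD-1), 0.57, 1.96 and 2.93 TPM (DOX/IgG1) and 7.52, 0.05 and 2.68 TPM (DOX/anti-PD-1). These genes had the same 3 tumors on top as the fiber genes and DOX/anti-PD-1 replicate 2 at or near 0. Neb (nebulin, from 2.84 to 85.3 TPM) and Des (desmin, from 0.99 to 27.3 TPM) followed the same order at the top, and Pygm, the glycogen phosphorylase of muscle, ranged from 0.31 to 26.3 TPM.

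Of the 12 other fast-fiber genes, 11 were tested, and their median r to the 10 genes was 0.79. Tnnc2, Eno3 (muscle enolase), Pvalb (the calcium buffer parvalbumin) and Casq1 (calsequestrin of fast fibers) were the most abundant, with means of 25.4, 17.8, 16.9 and 9.72 TPM. Pvalb was listed at 0 in 4 tumors and reached 81.6 TPM in DOX/anti-PD-1 replicate 1. Of the 22 genes of the sarcomere and Z-disc that fiber types share, 20 were tested, with a median r of 0.86. The most abundant genes of this list, ahead of Ttn and Neb, were the tropomyosins Tpm1 (from 266 to 561 TPM) and Tpm2 (from 21.5 to 153 TPM), are also used outside skeletal muscle, and their r was 0.39 and 0.85. Myoz3 was listed at 0 in every tumor.

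Of 14 genes that couple excitation to contraction, 10 were tested, with a median r of 0.52. Tmem38a and Srl, the most abundant, ranged from 7.94 to 22.1 and from 2.25 to 23.7 TPM and did not share the order of the tumors. Stac3, which links the calcium channel to the release channel, was at 2.55, 3.24 and 20.1 TPM (IgG1), 14.4, 3.26 and 4.04 TPM (anti-PD-1), 2.54, 3.18 and 2.64 TPM (DOX/IgG1) and 3.57, 4.16 and 4.17 TPM (DOX/anti-PD-1). It was high in IgG1 replicate 3 and anti-PD-1 replicate 1 and not in DOX/anti-PD-1 replicate 1, unlike Trdn (triadin), with 17.4 TPM in that tumor. All 10 genes of muscle energy metabolism were tested, with a median r of 0.42, and Pfkm, Cox8b, Slc2a4 and Phka1 led with means of 17.6, 13.5, 8.78 and 6.06 TPM.

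Slow-fiber genes varied in how far they followed the 10. Of 13 listed, 9 were tested, and their median r was 0.16, though several were listed at 0 in many tumors. The most abundant, Tpm3 (from 298 to 694 TPM) and the calcium pump Atp2a2 (from 168 to 261 TPM), are expressed in many cell types. Mb, the oxygen store myoglobin, ranged from 3.65 to 35.5 TPM. Myh7 was highest in anti-PD-1 replicate 1, at 5.16 TPM, with r = 0.50, and was listed at 0 in 6 tumors. Csrp3 was the slow-fiber gene most like the 10, with r = 0.87, the same 3 tumors on top and from 0 to 4.47 TPM.

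Several markers of muscle stem cells and of new fibers were listed at 0 in every tumor. Of 13 myogenic regulators and satellite cell genes, Myod1, Myf5 and Tmem8c (myomaker) were among these. Mef2c, also used by endothelial and immune cells, ranged from 8.48 to 34.5 TPM. Of 6 genes of embryonic or regenerating fibers, the embryonic myosin Myh3 was at 0 throughout, Myh8 did not exceed 0.49 TPM, and Myl4 and Tnnt2 were the most abundant, from 0 to 5.71 and from 0 to 7.65 TPM. Of 7 heart genes, Nppa, Nppb and Myl7 were at 0, and Myh6 did not exceed 0.13 TPM. Tnni3, the inhibitory troponin of heart muscle, was the exception, at 2.69, 57.5 and 30.9 TPM (IgG1), 20.2, 10.6 and 12.6 TPM (anti-PD-1), 4.58, 11.6 and 24.8 TPM (DOX/IgG1) and 25.1, 24.6 and 28.2 TPM (DOX/anti-PD-1), with an r of 0.17 to the fiber genes.

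The heart genes aside, these 7 lists of other muscle genes held 90 genes in all. Of these, limma called 0 in each of the 8 tests, with 51 tested in each of the 4 pairwise comparisons and 65 in the fits over 12 tumors. At an unadjusted p below 0.05 there were between 0 and 3 of these genes per test, beside 4.6% to 11.9% of all genes, among them Slc2a4, the insulin-dependent glucose transporter of muscle and fat, with a limma adjusted p of 0.252 for doxorubicin over both antibodies. Tnni3, the only heart gene tested, was not called either. It had an unadjusted p below 0.05 in DOX/anti-PD-1 against anti-PD-1 tumors, with a log2 fold change of 0.85 (limma adjusted p = 0.514). The median log2 fold change of the other fast-fiber genes was -0.23 for anti-PD-1 versus IgG1, -0.30 for DOX/IgG1 versus IgG1, 0.33 for DOX/anti-PD-1 versus anti-PD-1 and 0.61 for DOX/anti-PD-1 versus DOX/IgG1, beside -0.03, 0.12, 0.11 and -0.04 over all genes.

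**Figure D5:**
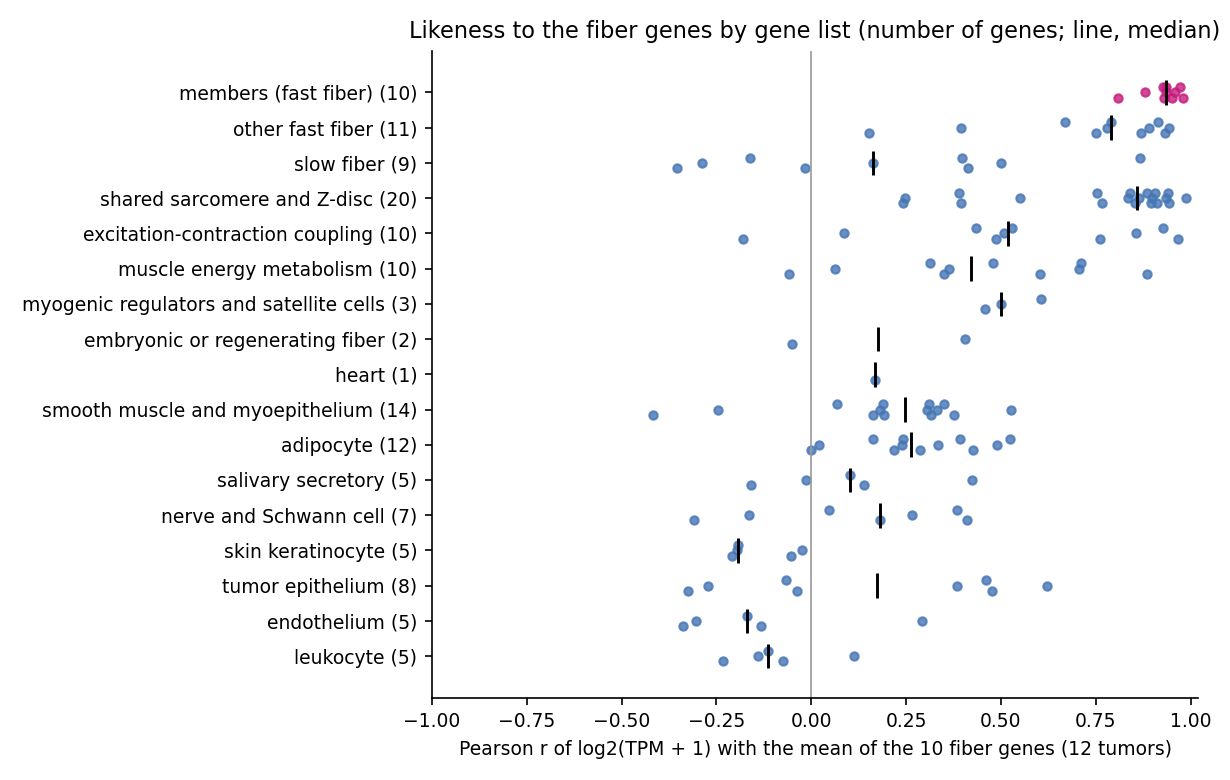
Pearson's r of log2(TPM + 1) with the mean of the 10 fiber genes over the 12 tumors, with 1 point per tested gene, for the 10 genes themselves and 16 other lists, and a line at the median. The lists of other fast-fiber genes and shared sarcomere genes have medians of 0.79 and 0.86, and the lists of other tissues lie between -0.19 and 0.26. For the 10 genes themselves, the mean includes the gene plotted.

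Other tissues that lie next to the mammary gland were followed by their markers. The 13 adipocyte genes, of which 12 were tested, summed to 145, 576 and 618 TPM (IgG1), 288, 196 and 283 TPM (anti-PD-1), 297, 1909 and 348 TPM (DOX/IgG1) and 1530, 493 and 641 TPM (DOX/anti-PD-1). Their most abundant genes were Car3, Cfd, Adipoq and Fabp4, from 29.8 to 744, from 56.8 to 419, from 14.2 to 177 and from 9.89 to 214 TPM. DOX/anti-PD-1 replicate 1 was thus high for fat and for fiber genes, whereas DOX/IgG1 replicate 2 was the highest for fat and only the sixth for fiber genes. Ucp1, the uncoupling protein of brown fat, was at 26.4 TPM in DOX/anti-PD-1 replicate 1. The median r of the adipocyte genes to the fiber genes was 0.26, and 0 were called in each of the 8 tests. Of the 12 genes, 10 had an unadjusted p below 0.05 in DOX/anti-PD-1 against anti-PD-1 tumors, beside 8.63% of all genes, with a median log2 fold change of 1.48 beside 0.11 over all genes. The part of adjacent tissue in the level of the fiber genes was not tested.

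The 14 genes of smooth muscle and myoepithelium summed to 696, 293 and 574 TPM (IgG1), 326, 481 and 484 TPM (anti-PD-1), 355, 1057 and 1632 TPM (DOX/IgG1) and 690, 641 and 1095 TPM (DOX/anti-PD-1). Their median r to the fiber genes was 0.25 and 0 were called, and Acta2, Tagln, Cnn1 and Myh11 had means of 207, 126, 80.7 and 57.6 TPM. The sum was highest in DOX/IgG1 replicate 3, so the tumors with the most smooth muscle transcripts were not those with the most fiber transcripts. Between the anti-PD-1 groups with and without doxorubicin, 6 of the 14 genes had an unadjusted p below 0.05 beside 8.63% of all genes, with a median log2 fold change of 0.80 beside 0.11. The 7 genes of nerve and Schwann cells, led by Sox10 with a mean of 53.9 TPM and followed by Pmp22 and Mbp, had a median r of 0.18. The 6 skin keratinocyte genes summed to between 2.08 and 29.5 TPM, with 5 tested and a median r of -0.19, and Krt10, the most abundant, had a mean of 3.44 TPM. The 5 endothelial genes (led by Pecam1, mean 37.9 TPM) and the 6 leukocyte genes (led by Ptprc, mean 98.1 TPM) had medians of -0.17 and -0.11, and the tumor epithelium genes 0.17. In these 4 lists of nerve, skin, endothelial and leukocyte genes, and among the epithelial ones, limma called 0 genes in each of the 8 tests.

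Salivary secretory genes were the only ones among the 17 lists with calls. Of 8 genes 7 were found and 5 tested, with a median r of 0.10 to the fiber genes. Bpifa2, a secreted salivary protein, was at 14.4, 21.3 and 53.7 TPM in DOX/IgG1 tumors and listed at 0 in the other 9. Smr3a, another, was at 16.6, 10.2 and 14.8 TPM in the same tumors, at 2.76 TPM in anti-PD-1 replicate 3 and listed at 0 in the rest. Both were called in DOX/IgG1 against IgG1 tumors (limma adjusted p = 0.0334 for each) and among the 4 groups, and Bpifa2 also in the other tests over 12 tumors. For DOX/IgG1 against IgG1, 0 genes were called without any 1 of the IgG1 tumors or without DOX/IgG1 replicate 3, so these calls were then lost. The call of Bpifa2 for anti-PD-1 was lost without most single tumors, as 0 genes were called in 9 of the 12 fits, and that for the interaction in 10 of the 12. Both calls were also lost with a pseudocount of 0.1, with median-of-ratios scaling and with the replicate block. Its call for doxorubicin was lost without IgG1 replicate 2 or anti-PD-1 replicate 1, where 0 genes were called. Amy1, the amylase, ranged from 4.85 to 42.8 TPM, and Prol1 from 0 to 23.6 TPM, and these and the other tested salivary gene were not called.

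On the chromosome, 4 of the 10 genes lie in 2 clusters. On chromosome 11 of GRCm38 the skeletal heavy chain genes Myh3, Myh2, Myh1, Myh4, Myh8 and Myh13 follow each other on the plus strand from 67078300 to 67371586. Myh2, next to Myh1, ranged from 0.18 to 12.1 TPM with an r of 0.75 to the 10 genes. Myh8, next to Myh4, stayed below 0.50 TPM, and Myh13, an isoform of eye and laryngeal muscles, was at 5.48 TPM in DOX/anti-PD-1 replicate 3 and at most 0.18 TPM in the others. On chromosome 7, Syt8, Tnni2, Lsp1, Tnnt3 and Mrpl23 follow each other. The neighbors Syt8 (r = -0.07), Lsp1 (r = 0.10), a leukocyte gene, and Mrpl23 (r = -0.74), a mitochondrial ribosomal protein, did not go along with the 10 genes. Against the mean of the other 9 genes, Tnni2 had an r of 0.94 and Tnnt3 of 0.91. Genes on the opposite strand overlap Myh1 (Myhas), Ckm (A930016O22Rik), Tnnt3 (Prr33), Atp2a1 (Rabep2) and Acta1 (Gm20388). The libraries were made with a kit that keeps the strand. Whether the counting used it is not given in the sources used here, and without strand the reads of such partners cannot be told apart.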

How the data were processed

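RNA-Seq of 12 whole PyMT tumors was analyzed. The authors used skewer for trimming, STAR with mm10 for alignment and RSEM for quantification, and deposited log2(TPM + 1) for 21960 genes per tumor, and versions are not given in the sources used here. The log2 step was reversed to give TPM. TPM keep no counts, so depth and counting error are unknown, and an exact 0 can be a failed estimate.

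Groups came from the labels. Genes at 1 TPM or more in at least 3 tumors of a fit were tested with limma 3.58.1 (R 4.3.3) on log2(TPM + 1), by lmFit and eBayes (trend of variance with mean, both sides tested), with Benjamini-Hochberg adjustment over all genes tested. The limits were an adjusted p of 0.1 and an absolute log2 fold change of 1. The 4 pairwise fits used 6 tumors each and the F test and contrasts all 12. The script was tested on simulated data.

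The 10 genes and the 17 gene lists were chosen with earlier results of these data known. Named genes are the 10, up to 4 genes per list with the highest mean TPM, called genes, markers at 0, the 15 genes most like the 10, and neighbors in both clusters. Genes named outside this rule, namely Nrap, Ucp1, Csrp3, Myh6 and Myh7, were chosen after their values were seen, as was the count of genes with the same 3 highest tumors. Muc19 was not analysed here. Some genes of the lists are not reported here. Coordinates are from GENCODE vM21 (GRCm38) and promoters from RefSeq (GRCm38.p6). The alternatives were a pseudocount of 0.1, no minimum, median-of-ratios scaling, a replicate block, no trend, 1 fit over all tumors and leaving out each tumor in turn.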

Additional observations from a re-analysis of the deposited data

Results flagged for a closer look

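Of 85 named genes, Bpifa2 was the only one for which the change with doxorubicin differed between the antibodies by the test of the interaction. It was listed at 0 in all IgG1, anti-PD-1 and DOX/anti-PD-1 tumors whereas the 3 DOX/IgG1 tumors held 14.4, 21.3 and 53.7 TPM, which gave an interaction of -4.73 on the log2(TPM + 1) scale (limma adjusted p = 0.0909). The call was lost with a pseudocount of 0.1, with median-of-ratios scaling and with the replicate block. It was also lost with most single tumors left out, since 0 genes were called for the interaction in 10 of the 12 such fits. For 0 of the 10 fiber genes did the interaction pass. The groups of 3 tumors are too small for a search for single outlying tumors.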

How the results depend on the processing

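The result on the 10 fiber genes, 0 called in each test, was the same under every alternative, and 0 of 1160 values were called. The counts over all genes moved. For anti-PD-1 versus IgG1 (0 genes), 1 was called with no trend and 0 to 4 with a tumor left out. For DOX/IgG1 versus IgG1 (5), the counts were 13 with no trend, 2 with the replicate block and 0 to 122 with a tumor left out. For DOX/anti-PD-1 versus anti-PD-1 (0) they were 3 with no trend and 0 to 4, and versus DOX/IgG1 (0) 3 with scaling, 3 with no trend, 2 in 1 fit over all tumors and 0 to 4. Among the 4 groups (11) they were 5 with a pseudocount of 0.1, 10 with the block, 10 with scaling, 12 with no minimum, 8 with no trend and 2 to 116, and for doxorubicin (13) 6, 9, 19, 12, 16 and 0 to 301 in the same order. The highest counts came without DOX/IgG1 replicate 1. For anti-PD-1 over both arms (1) and for the interaction (1), 0 were called with the pseudocount, scaling or block and 3 with no trend, the interaction had 3 with no minimum, and a tumor left out gave 0 to 5 and 0 to 1. The median share between groups was 5.27% to 23.7% with a tumor left out and 7.83% with the pseudocount. With a tumor left out, log2 fold changes went from -3.31 to 0.18 for Myh4 and from -0.43 to 2.07 for Mylpf (anti-PD-1 versus IgG1), from -3.07 to -0.81 for Tnnt3 and from -0.33 to 2.17 for Mylpf (DOX/IgG1 versus IgG1), from -2.26 to 0.31 for Myh1 and from 0.72 to 3.13 for Atp2a1 (DOX/anti-PD-1 versus anti-PD-1), and from -3.23 to 0.57 for Acta1 and from 0.01 to 3.33 for Ckm (DOX/anti-PD-1 versus DOX/IgG1), so 5 of these 8 changed sign. Correlations of residuals between tumors of different groups had a median of 0.02 over 18 pairs with the same replicate number. Over the 36 pairs with different numbers it was -0.005. Of the 12 tumors, 8 were best with their own number, although such pairs were fewer. Whether the numbers mark pairs was not tested, and they entered only as the replicate block. Groups of 3 whole tumors, unknown depth, the smaller starting size of tumors without doxorubicin, and genes chosen with their values known limit these results. The data hold no histology, so muscle in the samples was not seen, and the cause was not tested.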
